A study of Mus musculus with 40 samples.

Results

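Subcutaneous stromal vascular cells of mice fed a high-fat diet with 75 µg of Kal-1 (HF75) were compared with those of mice fed the high-fat diet alone (HFC). The 10 arrays are those labelled week 3, 6, 9, 12 and 15 of both diets, 5 per diet, out of 40 arrays in the series, and they were paired by week. The week 18 arrays were left out because the labels of the HF75 array conflict. All animals were C57BL/6J mice, weaned at 3 to 4 weeks of age and assigned at random to diets of 30 animals each. Both diets drew 60% of their calories from fat and had added sucrose, and only the HF75 diet held Kal-1, an aqueous botanical formulation. The labels state that 5 animals per diet were killed every 3 weeks but not how many are behind an array, and the series text mentions 3 biological replicates where the files hold 1 array per diet and week. The p-values therefore measure the spread between these arrays. Against the same HF75 arrays stand 5 arrays of the 20 µg dose (HF20) and 5 of the 5 µg dose (HF5), on the same high-fat diet and at the same weeks.

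The stromal vascular fraction is what remains of fat tissue once the mature adipocytes are removed, and it holds macrophages, lymphocytes, endothelial cells and the fibroblast-like progenitors of adipocytes. Those progenitors lay down most of the matrix around adipocytes: fibrillar and type VI collagens, the microfibril protein fibrillin 1, basement membrane collagen, and the enzymes that crosslink or cleave them. This matrix is known to build up as subcutaneous fat expands on a high-fat diet.

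Of 16 measured collagen genes, 5 passed the test and were lower at every week with 75 µg of Kal-1 than on the high-fat diet alone, and none passed as higher. Of all genes tested, 0.200% were lower and 1.00% higher. No gene passed as lower in limma without week 3, 6, 12 or 15, or without the pairing by week. The same held with the scan day as a block and without the probes that hold GAGGAG or GAGAGA. Of the 41 lower genes, 10 (24.4%) are members of a gene list, beside 722 of 20502 genes tested (3.52%). The lists and their members were chosen with earlier results of these data known, so shares and counts of list members are descriptions and no test. Loxl1 and Tnxb are in none, and matrix genes outside the collagen list are set beside it here with their values in view. Mmp2, fibrillin 1, lysyl oxidase-like 1, tenascin X, dermatopontin and the 5 collagen genes fell, each with the same sign in all 5 pairs and by 2.72-fold to 5.40-fold. No macrophage identity gene passed the test, although 12 of 15 had a negative difference. Of the 205 higher genes, 1 is a member of a gene list (0.488%), and their probes hold runs of the letters GAG far more often than other probes do. Such runs were found in 68.3% of the probes of the genes that were higher and in 5.96% of those of all genes tested.

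The tissue label was compared with marker genes. All 15 macrophage identity genes were well above background, by the scanner software's own flag, on all 10 arrays. So were 16 of 16 preadipocyte and fibroblast genes, 14 of 14 endothelial genes and 16 of 17 adipocyte genes, but 6 of 12 B cell and 7 of 14 T cell genes. Of all 20502 genes tested, 16753 were so as well, so these counts alone set no cell type apart. The mean intensity of the adipocyte genes, as log2, lay 2.77 to 4.99 above the 75th percentile of each array, saturated genes included. The labels give stromal vascular cells and the study's table of data sets gives infiltrating macrophages. Adipocyte genes at such levels go against both names. How much RNA of adipocytes the samples held was not tested. In such bulk samples, fewer cells of a type and less RNA per cell cannot be told apart.

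The 75th percentile of the intensities was lower on the HF75 array in every pair. It was 521, 585, 441, 443 and 733 on the HF75 arrays of weeks 3, 6, 9, 12 and 15, and 778, 810, 1623, 713 and 1113 on the HFC arrays. Spot signal over local background had a median of 3.87, 4.05, 3.85, 3.50 and 3.79 on HF75 and of 4.58, 5.42, 7.22, 4.12 and 6.48 on HFC. Levels are given as log2 intensity minus the 75th percentile of the array, so that a level of 0 is that percentile, and values per array follow the order of the weeks. The part of array brightness in the differences was not tested.

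Week 9 stands apart. The HFC array of week 9 had a median rank correlation of 0.877 with the other 9 arrays over 16753 genes, the lowest of the 10, and the other arrays had medians from 0.893 to 0.946. Its title carries the letters WS, as do those of the LFC (low-fat), HF5 and HF20 arrays of that week, and that of the HF75 array does not. The deposited HF75 array of week 9 was printed to 3 significant digits, and 5 of its spot names had turned into dates. For these reasons some differences, and list medians that shift by over 1.5 times, are given with all 5 pairs and again without week 9. No HF75 array shared a slide with an HFC array, and only the pairs of weeks 12 and 15 were scanned on the same day, so slide and diet cannot be told apart.

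Of 20502 genes tested with limma, 205 were higher in HF75 (1.00%) and 41 were lower (0.200%) at an adjusted p under 0.05, and 2951 had an unadjusted p under 0.05. The median difference of all genes tested was 0.01. Among 16753 genes well above background on all 10 arrays, called bright below, 87 were higher (0.519%) and 34 were lower (0.203%). All 41 lower genes were negative in 5 of 5 pairs and 204 of the 205 higher genes positive in 5 of 5, which a small p over 5 pairs nearly requires, so the shares among all genes tested, 7.73% and 9.61%, are no yardstick for them. The 41 lower genes correspond to 38 different probe sequences and the 205 higher genes to 200. The levels of the diets did not overlap for 30 of the 41 lower and 80 of the 205 higher genes. The share of all genes tested without overlap was not counted, so its mention for single genes below only describes them. Without week 9, 28 genes were lower and 185 higher, while 0 genes were lower by limma without week 3, 6, 12 or 15, with 2139, 2484, 2123 and 2621 genes at an unadjusted p under 0.05. Without the week block, 0 genes passed in limma in either direction, with 2583 at an unadjusted p under 0.05. With the week block replaced by the scan day, 0 passed as well, with 1234 at an unadjusted p under 0.05.

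Mmp2, a gelatinase that cleaves basement membrane and other matrix proteins, had levels of 2.98, 3.64, 3.33, 3.24 and 3.52 on the HFC arrays and of 0.65, -0.067, 1.75, 0.66 and 1.58 on the HF75 arrays. Every HF75 array was below every HFC array. The difference was -2.43 (SE 0.35), or 5.39-fold lower, with a limma adjusted p of 0.0307, and it was -2.64 without week 9.

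Fbn1 encodes fibrillin 1, the backbone of microfibrils. Its HFC levels were 1.93, 3.51, 2.26, 1.94 and 2.99, and its HF75 levels were -0.30, 0.59, 0.70, 0.77 and 0.65. The HF75 arrays of weeks 6 to 15 lay close together, that of week 3 was the lowest, and none reached the lowest HFC array. Fbn1 fell by 2.04 (SE 0.31), 4.12-fold, with an adjusted p of 0.0376 in limma. A further probe of the gene gave -2.29, with an adjusted p of 0.0634.

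Loxl1, a lysyl oxidase-like enzyme needed for crosslinked elastic fibres, stood at 2.07, 4.19, 2.91, 2.64 and 2.92 in HFC and at -0.016, 0.93, 1.44, 0.92 and 1.25 in HF75. The diets did not overlap, and both had their lowest level at week 3. Its difference was -2.04 (SE 0.32), 4.11-fold lower, with an adjusted p of 0.0419 in limma, and -2.18 without week 9. Tnxb, tenascin X, a matrix protein that binds collagen fibrils, measured 3.33, 4.77, 3.26, 4.04 and 4.19 in HFC against 1.79, 2.19, 2.24, 1.80 and 2.42 in HF75. Here too the highest HF75 array lay below the lowest HFC array. Tnxb fell by 1.83 (SE 0.29), 3.55-fold, with an adjusted p of 0.0449 in limma.

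Dpt encodes dermatopontin, a small protein that binds decorin and collagen and is made by fibroblasts. It had the largest difference among the bright lower genes, with HFC levels of 3.53, 2.87, 4.66, 3.53 and 3.84 and HF75 levels of 0.15, 0.95, 3.24, 1.53 and 0.38. Week 9 was the highest week of both diets, and the HF75 array of that week lay above the HFC array of week 6, so the diets overlapped although each pair was lower in HF75. The paired difference was -2.43 (SE 0.38), 5.40-fold lower, with an adjusted p of 0.0405 in limma, and -2.69 without week 9.

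**Figure D1:**
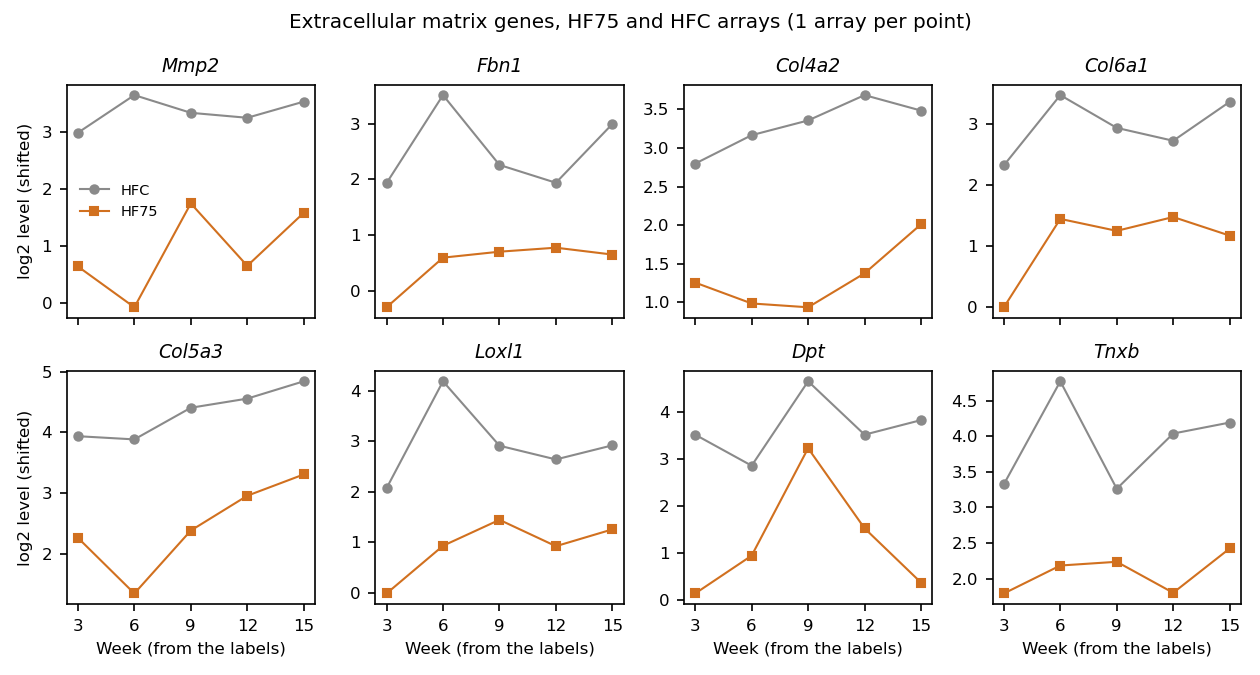
Level of 8 matrix genes (log2 intensity minus the 75th percentile of the array) at weeks 3, 6, 9, 12 and 15, with 1 array per point, HFC in grey circles and HF75 in orange squares. HF75 lies below HFC at all 5 weeks in each panel, and only for Dpt does an HF75 array (3.24, week 9) lie above an HFC array (2.87, week 6).

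Collagens were measured by 16 genes of the list, 15 of them bright. Of these, 5 were lower and 0 higher in HF75 at the limma threshold, beside 0.200% and 1.00% of all genes tested. Col4a2, a chain of the type IV collagen of basement membranes, had levels of 2.80, 3.17, 3.36, 3.68 and 3.48 in HFC and of 1.26, 0.99, 0.94, 1.38 and 2.01 in HF75. All HF75 levels were below all HFC levels, with the widest gap at week 9. It fell by 1.98 (SE 0.25), 3.96-fold, with an adjusted p of 0.0236 in limma, and its other probe gave -2.45.

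Type VI collagen, which forms beaded filaments around adipocytes, was lower through Col6a1 and Col6a3. Col6a1 read 2.32, 3.47, 2.94, 2.73 and 3.36 in HFC and 0.001, 1.45, 1.25, 1.48 and 1.17 in HF75, a difference of -1.89 (SE 0.25), 3.72-fold lower, with an adjusted p of 0.0257 in limma. Col6a3 read 4.44, 4.53, 4.56, 5.01 and 5.18 in HFC and 2.46, 3.30, 2.46, 3.00 and 3.86 in HF75, a difference of -1.73 (SE 0.25), 3.32-fold lower, with an adjusted p of 0.0322. For both genes every HF75 array lay below every HFC array.

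Type V collagen, which sets the diameter of collagen fibrils, was lower through Col5a3 and Col5a1. Col5a3 levels were 3.94, 3.89, 4.41, 4.56 and 4.84 in HFC and 2.27, 1.36, 2.39, 2.96 and 3.31 in HF75, and it fell by 1.87 (SE 0.25), with an adjusted p of 0.0257 in limma. Col5a1 levels were 3.15, 4.09, 3.36, 3.79 and 4.00 in HFC and 1.73, 2.28, 1.997, 2.47 and 2.69 in HF75, and it fell by 1.44 (SE 0.22), with an adjusted p of 0.0351. Neither gene overlapped between the diets. Other probes of the same genes gave smaller values, -0.58 for Col5a3 and -0.40 for Col5a1, and neither passed the threshold. Among the 41 lower genes, the probes of Dpt, Srpx2 and Col5a3 hold GAGGAG or GAGAGA, letters that most probes of the higher genes hold. Both probes of Col5a3 hold them.

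Over the whole collagen list, 14 of 16 differences were negative, 11 of them in all 5 pairs, and the median was -1.33 beside 0.01 for all genes tested. The weekly medians were -1.001, -1.22, -1.33, -1.28 and -0.94, and the median without week 9 was -1.32. Under quantile normalization, normexp background correction, without the probes that hold GAGGAG or GAGAGA, and without each week in turn, it ranged from -1.42 to -1.05. Col1a1, a chain of the abundant fibrillar type I collagen, differed by -0.83 and did not pass, with levels of 6.34, 6.10, 5.30, 6.16 and 5.86 in HFC and of 5.46, 4.64, 5.28, 5.03 and 5.19 in HF75. It was saturated on 3 of the 5 HFC arrays, so its HFC level is a lower limit there. Col1a2 had the brightest probe of the list. That does not rank its abundance, because probes differ and 2 genes of the list were saturated on all 5 arrays of a diet.

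Aebp1, Bmper and Srpx2 are in no gene list and are described here with their values in view. None of them overlapped between the diets. Aebp1, a secreted protein that binds collagen, had HFC levels of 0.77, 0.96, 0.0091, 0.094 and 1.21 and HF75 levels of -1.91, -0.73, -1.04, -2.27 and -1.02, and fell by 2.002 (SE 0.30), with an adjusted p of 0.0351 in limma. Bmper, a secreted binder of bone morphogenetic proteins, had HFC levels of 0.46, 2.88, 1.17, 1.91 and 1.64 and HF75 levels of -1.31, 0.42, -0.41, -0.67 and 0.29, and fell by 1.95 (SE 0.28), with an adjusted p of 0.031. Srpx2, a sushi-repeat protein of the extracellular matrix, fell by 2.35 (SE 0.30), from HFC levels of -0.87, 0.64, 1.00, -0.11 and -0.10 to HF75 levels of -2.31, -2.55, -1.52, -2.56 and -2.25, with an adjusted p of 0.023.

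Angptl2 is an angiopoietin-like protein secreted by adipose tissue. It had HFC levels of -2.04, -1.83, -0.40, -1.40 and -1.55 and HF75 levels of -3.55, -3.83, -2.90, -3.91 and -3.24, with no overlap. The difference was -2.04 (SE 0.26), with an adjusted p of 0.023 in limma, and its other probe gave -2.92, with an adjusted p of 0.0153. Ctsk, cathepsin K, a lysosomal protease that degrades collagen, had levels of 1.00, 1.06, 1.16, 1.72 and 1.58 in HFC and of -0.96, -0.53, 0.33, 0.14 and 0.042 in HF75, again without overlap. Ctsk fell by 1.50 (SE 0.25), with an adjusted p of 0.0494, just under the threshold.

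The rest of the 15 largest bright differences of this direction are less readily grouped. Defa3, an alpha-defensin known from Paneth cells, differed by -1.96 (SE 0.32), with an adjusted p of 0.0475 in limma and HF75 and HFC levels that overlap. LOC100045535 and Gm3478, predicted genes, differed by -2.18 and -2.09, and their probes have the same 60 letters, so they are 1 sequence printed at separate spots. Among the remaining lower genes, named here after their values were seen, Ccdc80 differed by -1.70, Htra3 by -1.65, Lama2 by -1.49, Adamtsl4 by -1.77 and P3h1 by -1.82. Ccdc80 is a secreted matrix protein of preadipocytes, Htra3 a secreted serine protease, Lama2 a laminin chain, Adamtsl4 a microfibril-associated protein and P3h1 a collagen prolyl hydroxylase. Gzmd, a granzyme, and Rdh12, a retinol dehydrogenase, differed by -1.44 each.

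Some of the lower genes have more than 1 probe. Of the 41 genes, 11 have further probes, 12 in all, and all 12 had negative differences, with a median of -2.13 and 5 past the threshold. The median difference of the 41 genes was -1.83, and by week it was -1.81, -1.81, -1.62, -1.79 and -1.65. Under a normexp background correction 9 of these genes were lower at the limma threshold, and all 41 kept a negative difference, with a median of -1.25. That correction moved the median of all genes to -0.17.

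Lists of fibroblast, macrophage, complement and lysosome genes had negative medians with few or no members past the threshold. Of 16 preadipocyte and fibroblast genes, 2 were lower (Dpt and Fbn1), beside 0.200% of all genes tested. Of the 16, 13 were negative and the median was -0.49, or -0.83 without week 9. Pdgfra, the receptor that marks these progenitors, had levels of 0.69, 2.77, 1.06, 1.24 and 1.84 in HFC and of -0.93, 2.28, -0.34, 0.37 and 0.86 in HF75. Both diets peaked at week 6 and the levels overlapped, and the difference of -1.07 did not pass, with an adjusted p of 0.127 in limma. In this list 3 genes were saturated on all 5 arrays of a diet, and the median of the 13 others was -0.83. The level of the 11 genes never saturated, as the log2 of their mean intensity, was 3.21, 3.48, 2.98, 3.22 and 3.75 in HFC and 1.97, 2.70, 2.58, 2.33 and 2.48 in HF75, lower in HF75 at all 5 weeks.

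Macrophage identity genes numbered 15, of which 0 passed in limma in either direction. Their median was -0.60, and by week -0.48, -1.18, -0.06, -0.07 and -0.63. Over quantile normalization, normexp correction, the probes with GAGGAG or GAGAGA left out and each week left out, it ran from -0.81 to -0.14. Csf1r, the receptor for the growth factor that macrophages depend on, had the lowest value of the list, with levels of 1.01, 3.66, 2.28, 1.22 and 1.48 in HFC and of 0.27, 0.70, 0.45, -0.015 and -0.33 in HF75. These do not overlap, and the difference of -1.71 had an adjusted p of 0.0908. Adgre1, which encodes the F4/80 antigen, had levels of 1.68, 2.87, 2.73, 2.04 and 2.29 in HFC and of 0.79, 1.97, 1.16, 1.21 and 1.66 in HF75, lower in 5 of 5 pairs with a little overlap, and its difference was -0.97 (adjusted p 0.139). The level so computed for the 14 genes of the list never saturated was 2.48, 3.65, 2.15, 2.11 and 2.47 in HFC and 2.33, 1.92, 2.21, 1.97 and 1.84 in HF75, lower in HF75 at 4 of 5 weeks. Lyz2 had the brightest probe of the list and was saturated on some arrays. With Lyz2 included, the level of the list was 3.54, 4.16, 2.80, 3.12 and 3.32 in HFC and 3.80, 2.95, 3.70, 3.02 and 3.39 in HF75, lower in HF75 at 2 of 5 weeks.

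Alternatively activated macrophage genes had a median of -0.99 over 16 genes, 14 of them negative and 7 negative in all 5 pairs, with 0 past the threshold in limma. Mrc1, a mannose receptor, differed by -0.96 and was lower in 5 of 5 pairs, with an adjusted p of 0.154. Folr2 and Mgl2, markers of resident macrophages, differed by -1.65 and -1.53, each lower in 5 of 5 pairs, with adjusted p-values of 0.153 and 0.177. Lipid-associated macrophage genes, which mark the cells that take up lipid from dying adipocytes, had a median of -0.59 over 15 genes. Within that list Gpnmb differed by -1.07 and Trem2 by -0.20, while Spp1, osteopontin, was positive in 5 of 5 pairs at 1.33, and none of them passed.

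Complement genes had a median of -0.92 over 14 genes, 12 of them negative and 8 negative in all 5 pairs. C1qb, a chain of the complement recognition protein made by macrophages, had levels of 1.098, 3.15, 2.01, 1.21 and 1.58 in HFC and of 0.45, 0.28, 0.65, 0.14 and -0.06 in HF75. The diets did not overlap and the difference of -1.52 had an adjusted p of 0.121 in limma. C1qa likewise showed no overlap at -1.38, with an adjusted p of 0.198. Lysosome genes had a median of -0.44 over 25 genes, 23 of them negative. Ctsk was the only one past the threshold, beside 0.200% of all genes tested that were lower. Psap, the precursor of the saposins, came close, with levels of 4.75, 4.70, 5.02, 4.51 and 4.85 in HFC and of 3.74, 3.43, 3.87, 3.32 and 3.48 in HF75, which do not overlap, a difference of -1.20 and an adjusted p of 0.0594.

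Lists of matrix regulators held 1 gene past the threshold, a lower one, beside 0.200% of all genes tested that were lower. Matrix proteases and their inhibitors had a median of -0.40 over 17 genes (-0.26 without week 9), with Mmp2 lower and 0 higher, and TGF-beta and fibrosis genes had a median of -0.47 over 17 genes (-0.25 without week 9) with 0 past the threshold in limma. Lox, the founding lysyl oxidase, was lower in 5 of 5 pairs, at -1.07 (adjusted p 0.111), and Tgfb1 was lower in 4 of 5, at -0.70 (adjusted p 0.514). Wnt ligands, receptors and inhibitors had a median of -0.37 over 21 genes. Among these Sfrp2, a secreted Wnt modulator of fibroblasts, was lower in 5 of 5 pairs, at -1.36, with an adjusted p of 0.166.

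Of the 49 lists, 34 had a median below 0 and 15 above it. The sign held in 24 of the 34 and in 2 of the 15 under quantile normalization, normexp correction, without the probes that hold GAGGAG or GAGAGA, and without each week in turn. The 2 lists above 0 that held were neutrophil and cytosolic ribosomal protein genes. Without week 9 the neutrophil median went from 0.87 to 0.10. The ribosomal list had a median of 0.62, or 0.28 without week 9, over 28 genes, 25 of them positive, and 0 passed in limma. On this list 11 genes were saturated on all 5 arrays of a diet, where the level only reflects the scanner limit, and the 8 genes never saturated had a median of 0.11, with 5 positive. Rplp0 and Rps2, saturated on all 10 arrays, have no measured difference.

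Lymphoid and muscle genes swung from week to week within these pairs. B cell genes had medians of -0.72, -2.74, 6.95, 3.47 and -5.57, with 0 of 12 past the threshold in limma, and 0.31 over all pairs, or -1.23 without week 9. Cd79b, a chain of the B cell receptor, had levels of 4.93, 1.09, -1.77, -0.27 and 3.44 in HFC and of 4.69, -1.73, 4.05, 4.40 and -2.04 in HF75, so that both diets hold high and low arrays. Lymph node stroma genes followed the same order of weeks, with medians of -0.36, -1.86, 6.07, 3.26 and -5.13. Skeletal muscle genes had medians of 2.15, -0.77, 8.32, -3.06 and 0.42, and Tnni2, a fast-muscle troponin, ranged from -2.81 to 6.44 (saturated, a lower limit) in HFC and from 0.83 to 6.23 in HF75. The part of lymph node and muscle RNA in the differences of other genes was not tested.

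Adipocyte genes also split by week, with medians of 0.49, 1.55, -2.47, -0.66 and 1.70, and 0 of 17 passed the threshold in limma. Adipoq, adiponectin, had levels of 2.51, 0.60, 5.34, 3.45 and 1.48 in HFC and of 3.54, 1.60, 4.01, 2.87 and 4.24 in HF75, the highest of all being the HFC array of week 9, where Adipoq was saturated and 5.34 is a lower limit. On that array 12 of the 17 genes were saturated, so the medians of week 9 reach the scanner limit. Lipogenesis genes had a median of -0.14, or 0.15 without week 9, and fatty acid oxidation genes -0.37, or -0.02 without it. Pparg, the master factor of adipocyte differentiation, had levels of 1.23, 1.20, 4.80, 2.77 and 1.66 in HFC and of 1.85, 1.01, 1.78, 1.63 and 2.36 in HF75, with a difference of -0.60, or 0.00067 without week 9. The HFC array of week 9 is the highest of the 10 in both genes. The median collagen difference was -1.33 at week 9 and -1.32 without it. In the collagen list 2 genes were saturated on all 5 arrays of a diet. The level of the 13 collagen genes never saturated, as the log2 of their mean intensity, was 2.90, 3.37, 3.01, 3.53 and 3.63 in HFC and 1.65, 2.53, 1.31, 2.04 and 2.74 in HF75, lower in HF75 at all 5 weeks.

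**Figure D2:**
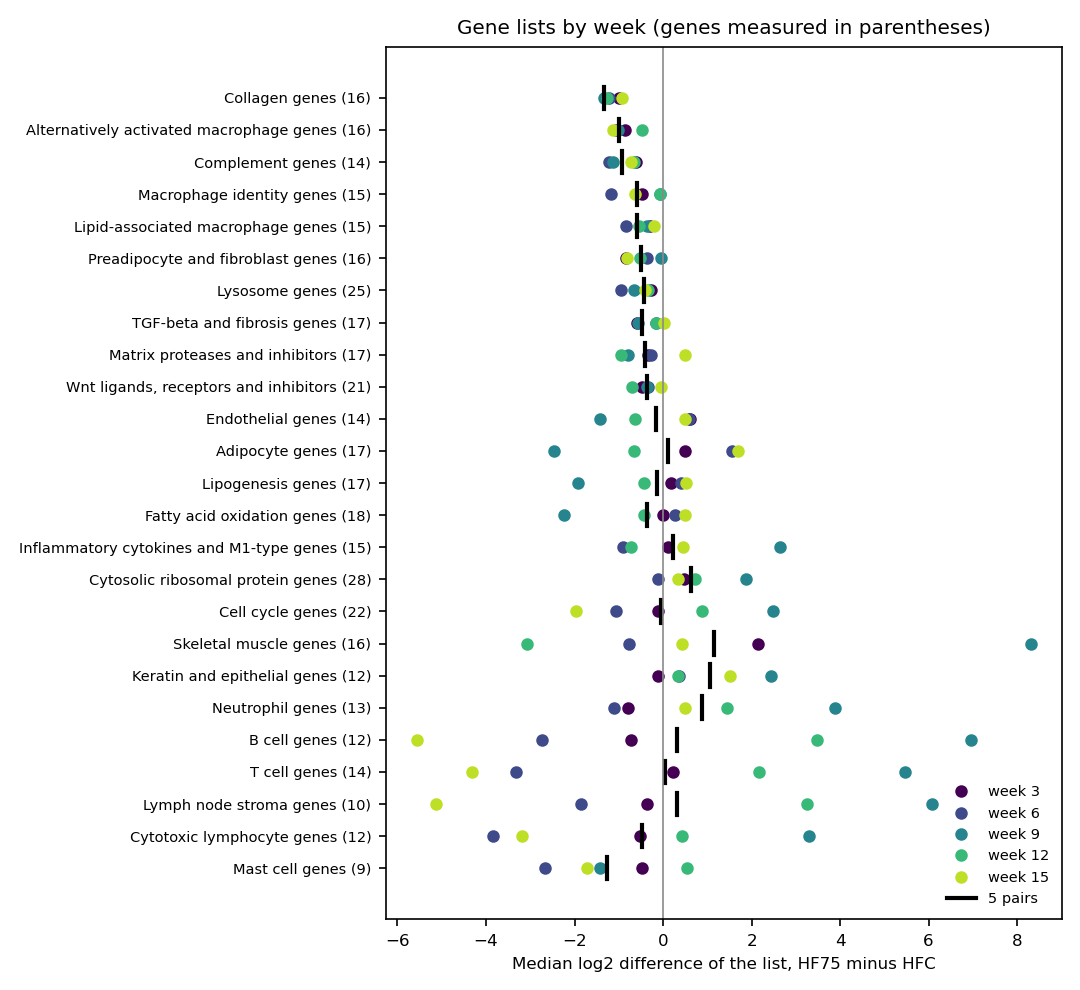
Median log2 difference (HF75 minus HFC) of 25 gene lists, with 1 point per week and a black bar for the median of the 5-pair differences, and the number of genes measured in parentheses. The collagen points lie together between -1.33 and -0.94, and those of B cell genes run from -5.57 (week 15) to 6.95 (week 9).

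Inflammatory genes did not move one way. Inflammatory cytokines and M1-type genes had a median of 0.22 over 15 genes, or -0.45 without week 9, with 0 past the threshold in limma. Tnf had levels of 0.097, 3.63, -4.66, 1.63 and 0.76 in HFC and of -0.63, 0.45, -0.59, -1.76 and -0.49 in HF75, lower in HF75 at every week but week 9. CC chemokines had a median of -0.65 over 15 genes, from -0.87 to -0.15 over the same 8 alternatives as the macrophage list. Ccl2, which draws monocytes into fat, had levels of 3.47, 6.23, 2.41, 5.63 and 5.81 in HFC and of 2.01, 3.14, 2.55, 3.88 and 4.47 in HF75, lower in 4 of 5 pairs, and its difference of -1.50, or -1.91 without week 9, had an adjusted p of 0.213. Ccl7 showed -1.52, or -1.93 without week 9, with an adjusted p of 0.178.

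Among the higher genes, Krt2, a keratin of upper epidermis, had levels of 0.65, -5.13, -5.54, 3.93 and -0.24 in HFC and of 6.55, 3.48, 3.02, 6.98 and 5.30 in HF75. Each pair was higher in HF75, both diets were highest at weeks 3 and 12, and the HFC array of week 12 reached into the HF75 range. The difference of 6.33 (SE 0.83), 80.6-fold, had an adjusted p of 0.0244 in limma and was 5.78 without week 9.

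Sh3bp1, a protein that binds SH3 domains, had levels of 0.031, -4.02, -4.15, 2.40 and -1.86 in HFC and of 6.11, 2.74, 1.61, 5.89 and 4.44 in HF75. Map1a, a microtubule-associated protein of neurons, had levels of -0.59, -3.34, -5.45, 2.36 and -1.30 in HFC and of 5.55, 2.41, 2.24, 5.21 and 4.05 in HF75. In both genes the order of the weeks was close to that of Krt2, with weeks 3 and 12 high. Sh3bp1 differed by 5.68 (SE 0.48, adjusted p 0.011) and Map1a by 5.56 (SE 0.64, adjusted p 0.0169) in limma.

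Ccdc141, a coiled-coil protein, had levels of -0.78, -3.31, -4.80, 2.37 and -1.57 in HFC and of 5.06, 2.70, 2.55, 4.80 and 3.42 in HF75, and it differed by 5.32 (SE 0.66), with an adjusted p of 0.0218 in limma. It is 1 of 2 among the 15 named higher genes whose diets did not overlap, beside 80 of all 205 higher genes. The other is Gm8778, a predicted gene, at 5.06. The 15 ranged from 5.06 to 6.33 and include Defa20, an alpha-defensin of Paneth cells, at 5.90, Ntm, a neural adhesion protein, at 5.39, 1700030K09Rik at 5.11, Smim40-ps at 5.34, and the predicted genes Gm4435, Gm2557, Gm2955, Gm4444, LOC640511 and Gm3384. Of these, Gm4435, Gm2557, Gm2955 and Gm3384 were saturated on the HF75 arrays of weeks 3 and 12, which makes their differences lower limits.

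The probes of these genes share letters. All 15 hold GAGGAG, and 140 of the 205 higher genes (68.3%) have a probe with GAGGAG or GAGAGA, against 1221 of 20502 genes tested (5.96%), 3 of the 41 lower genes (7.32%) and 1973 of all 40628 probes (4.86%). The search for these letters was made after the values were seen, on the probe strand as deposited, over the whole 60 letters. The reverse complements, CTCCTC and TCTCTC, occur in 0.976% of the probes of the higher genes and in 3.34% of those of the genes tested. A match describes the probe, and whether the letters have a part in the differences was not tested. Stretches of 30 letters from 4 of the probes are shown, 5′ to 3′, because they carry the letters that the higher genes have in common, and capitals mark GAGGAG or GAGAGA.
Krt2: ctgGAGGAGGAGgatacagctctgGAGGAG
Map1a: gaaaaggctgagttaGAGGAGatgGAGGAG
Ccdc141: gGAGGAGgcaGAGGAGcagcttcagagcct
1700030K09Rik: GAGGAGgaaatgctactgcttagaagcttg

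Over all genes tested, the median difference was larger the more often GAG occurs in the probe, from 3 times on. The median was -0.0076 for the 8205 genes with no GAG, 0.12 for 1422 genes with 3, 0.42 for 530 with 4, 1.19 for 162 with 5 and 2.13 for 70 with 6 or more. The last group had medians of 1.42, 1.71, 3.74, 1.42 and 1.46 by week. Genes whose probe holds GAGGAG or GAGAGA had a median of 0.50 and were positive in 73.1%, and those whose probe holds neither had a median of -0.0030 and were positive in 49.8%. With these probes left out, an alternative chosen after the data were seen, 9 genes were higher and 0 lower in limma, with 2505 at an unadjusted p under 0.05 of 19564 tested. Of the 205 higher genes, 97 kept a value there, of which 76 were positive. Under a normexp background correction 188 of the 205 stayed positive and 99 passed, with a median of 1.63 beside 3.96. All 38 of the lower genes that kept a value without these probes stayed negative, with a median of -1.82 and adjusted p-values from 0.0555 to 0.105.

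Some of the higher genes have other probes. Of the 205 genes, 43 have further probes, 58 in all, with a median difference of -0.09 beside 4.10 for the probes used, and 24 of the 58 were positive and 4 past the threshold. The 8 that hold GAGGAG or GAGAGA had a median of 0.95, with 6 positive, and the 50 without had -0.11, with 18 positive. Map1a had values of -0.29 and 1.30 at its other probes, of which the latter holds GAGGAG or GAGAGA. Sh3bp1 had 0.14 and 0.32, and 1700030K09Rik had -0.20. Mx1, an interferon-induced GTPase and the only member of a gene list among the 205, differed by 2.98 (SE 0.29, adjusted p 0.0118 in limma) at a probe with these letters and by -0.72 at its other probe. Its levels at the first were -0.87, -3.03, -4.79, -1.98 and -3.37 in HFC and 1.74, -0.90, -1.20, 1.15 and 0.094 in HF75, while the other 22 interferon-stimulated genes did not pass.

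The level of the 205 probes also varied among arrays within each diet. Their median was -4.11, -6.48, -6.56, -2.48 and -4.71 on the HFC arrays and 1.05, -2.40, -1.64, 0.78 and -1.08 on the HF75 arrays. It was 0.18 on the HF5 array of week 12 and -1.38 on the LFC array of week 15, which lie in the HF75 range without the 75 µg dose. The LFC array of week 3 had 2.21, but it is an array of very low intensity, with a 75th percentile of 7.81. On the HF20 arrays it was -3.49, -5.86, -3.47, -6.38 and -5.48, all below the lowest HF75 array.

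**Figure D3:**
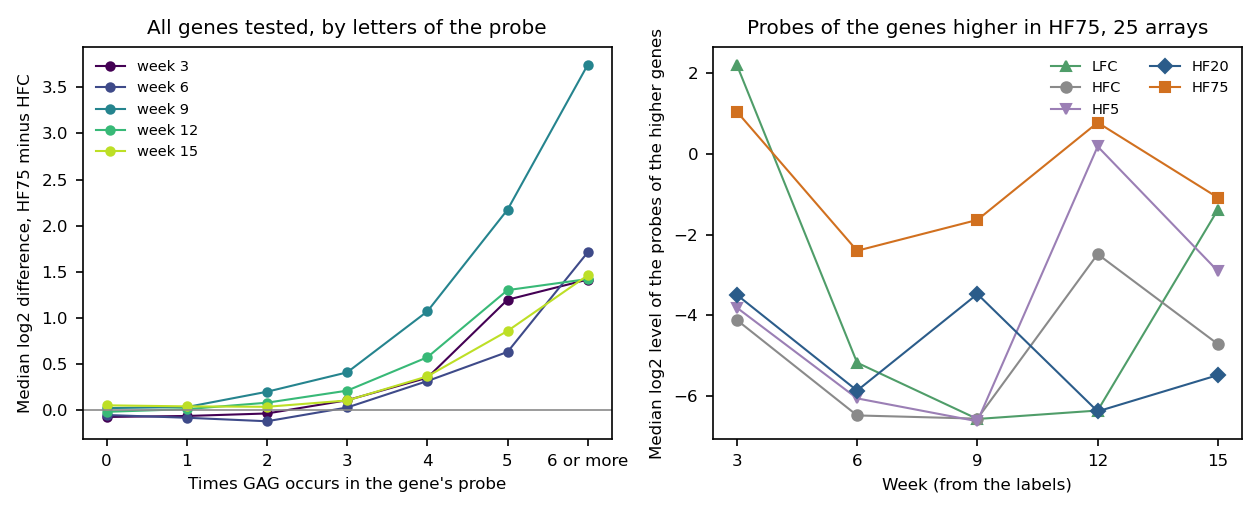
Left, median log2 difference (HF75 minus HFC) of genes tested by how often GAG occurs in the probe, with 1 line per week. Right, median log2 level of the probes of the 205 higher genes on 25 arrays of 5 diets, where HF75 runs from -2.40 to 1.05 and HFC from -6.56 to -2.48, and the HF5 array of week 12 (0.18) lies in the HF75 range.

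Some list members with large positive differences had such probes. Of 722 list members, 16 had a difference above 2, 8 with GAGGAG or GAGAGA in the probe and 8 without. Of the 7 bright ones among them, Fgf2 (4.27), Mmp13 (3.33), Mx1 (2.98), Bhlhe41 (2.85), Igfbp4 (2.74) and Tlr13 (2.60) hold GAGGAG or GAGAGA in their probe and Tnni2 (2.02) does not. Only Mx1 passed. Fgf2, a fibroblast growth factor, had levels of 2.39, -3.23, -3.72, 3.48 and 1.25 in HFC and of 4.82, 2.84, 4.31, 5.79 and 3.75 in HF75, with an adjusted p of 0.105 in limma. The 47 list members with such a probe had a median of 0.31, and the 675 without had -0.18.

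Dim genes were 118 of the 205 higher and 7 of the 41 lower. Among them, 6 were well above background on all 5 HF75 arrays and on none of the 5 HFC arrays, of which the 5 with the largest bounds are given first. These 6 entered the test through the HF75 arrays alone, and the share of all genes with this pattern was not counted. Their bounds are therefore descriptions and no further support. Gprin1, a regulator of neurite outgrowth, was at least 19.2-fold higher, with HF75 levels of 0.61, -4.63, -3.73, -0.54 and -1.81 and HFC levels from -8.37 to -6.59, which are near background. LOC641136 was at least 10.1-fold, 1700029M03Rik at least 6.55-fold, LOC100044594 at least 4.95-fold and Mafa, an insulin gene factor of beta cells, at least 4.64-fold higher. None of these 5 probes holds GAGGAG or GAGAGA, while that of 4921524L21Rik, at least 4.04-fold higher and named after its values were seen, does. No lower gene was well above background on all 5 HFC arrays and on none of the HF75 arrays.

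The matrix genes were then set against the other doses, which share the HF75 arrays with the main comparison. Against HF20, 82 of 22030 genes were higher in HF75 (0.372%) and 4 were lower (0.0182%) in limma, with 5449 at an unadjusted p under 0.05. Without week 3, 263 of 21620 genes were higher and 207 lower, so the balance of directions hangs on that pair. Without week 6, 9 or 15, 0 passed in limma, with 5231, 3614 and 3628 at an unadjusted p under 0.05. Of the 41 genes lower than in HFC, 40 were tested and 0 passed, with a median difference of -1.37 from HF20. Of the 82, 66 have a probe with GAGGAG or GAGAGA (80.5%, against 5.66% of genes tested). The 4 lower genes, named after their values were seen, were Palm at -1.76, and the dim genes Epb41l5 at -2.78, Gm3852 at -3.08 and Usp35 at -2.68. Against HF5, 0 of 20395 genes passed in limma in either direction, with 1642 at an unadjusted p under 0.05.

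The HF5 array of week 3 stands apart in these genes. The median level of the 41 probes was -3.38 on it and 0.49, 0.39, -1.03 and 0.23 on the HF5 arrays of weeks 6 to 15, and 57.3% of its spots were well above background, beside 68.4% to 71.3% on those. Differences from HF5 are therefore given also without week 3.

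Mmp2 differed from HF20 by -1.19 and from HF5 by -1.20, with adjusted p-values of 0.173 and 0.658 in limma, beside -1.24 for HF20 against HFC and -1.23 for HF5 against HFC. Without week 3 it differed from HF5 by -1.77, and HF5 from HFC by -0.68. Col4a2 differed from HF20 by -1.60 (adjusted p 0.0877) and from HF5 by -0.93 (adjusted p 0.894), beside -0.39 and -1.05 for those doses against HFC. On the HF5 arrays Col4a2 was at -1.62 at week 3 and between 3.05 and 3.36 later, and without week 3 it differed from HF5 by -1.89, and HF5 from HFC by -0.21. Col5a3 came closest against HF20, at -1.55 with an adjusted p of 0.0597. The collagen list had a median of -0.79 against HF20 and of -0.18 against HF5, while HF20 and HF5 against HFC gave -0.62 and -1.08. Leaving out week 3 gave -0.83 against HF5 and -0.37 for HF5 against HFC. Medians of the 41 genes were -0.59 for HF20 against HFC and -1.01 for HF5 against HFC, or -0.67 and -0.53 without week 3. These differences share the HFC or HF75 arrays with the comparison of HF75 with HFC, and a dose order among 5, 20 and 75 µg was not tested.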

How the data were processed

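Per the file headers, the deposited values are intensities of Agilent Feature Extraction 10.5.1.1 (the labels give 9.1), background-subtracted and detrended within each 1-colour array and not normalized between arrays, with deposited flags for spots saturated, uneven or well above background (other columns). The authors' table of log2 fold changes against LFC was not used, nor were the 15 arrays outside the 5 diets at weeks 3 to 15.

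In Python 3.11.15 with pandas 2.3.3, NumPy 2.4.6 and Matplotlib 3.10.9, control and outlier spots were dropped, the 75th percentile of each array was subtracted from its log2 intensities, and spots of a probe were averaged. Of 40628 probes, 28128 were named through their RefSeq accession. A gene took its probe with the highest mean level over the 10 arrays. Genes entered when well above background on at least 3 arrays of either diet, with at least 50% of the spots of a probe so marked.

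limma 3.58.1 in R 4.3.3 fitted diet with the week as a block, tested on simulated data, with Benjamini-Hochberg adjustment over all genes tested and a threshold of 0.05. The week came from the labels. Across 16753 genes, the levels of HF75 and HFC arrays of the same week, each relative to the mean of its diet, had Pearson correlations of 0.613, 0.432, -0.0234, 0.144 and -0.0897. The highest correlation of each HF75 array with an HFC array of another week was 0.209, 0.160, 0.482, 0.343 and 0.382, so same-week arrays were the most alike at weeks 3 and 6 and not at the other weeks. Of 300 pairs of arrays, 0 had over 1% equal values.

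Named genes were the 15 largest differences in each direction among bright genes past the threshold with 1 sign in 5 pairs, up to 5 dim genes per direction, and members of each of 49 lists. The members and lists were chosen with earlier results of these data known. A gene of these lists and some probe sequences are not reported here. Alternatives were other normalizations, filters, probes and blocks, each week left out, and the methods' t-test.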

Additional observations from a re-analysis of the deposited data

Results flagged for a closer look

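For each diet, the 5 arrays were searched for 1 array far from the other 4, relative to the range of the 5. Of 452 groups of 5 arrays, 35 held such an array. Chance alone would give about 1 in 20 groups if the values were normal and the groups independent. The groups are lists and single genes on the same arrays, so they are not independent, and an excess over chance was not tested. The HFC array of week 9 was that array in 18 of the 35.

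On the HFC array of week 9, the levels (for a list, log2 of the mean intensity of its genes) of inflammatory cytokines (0.67, others 3.64 to 4.08), preadipocyte and fibroblast genes (4.16, others 4.77 to 4.94), AP-1 genes (2.87), Egr, Nr4a and Klf genes (4.00) and interferon-stimulated genes (1.36) were low. Those of lipogenesis genes (4.09, others 1.62 to 2.29) and fatty acid oxidation genes (3.98, others 1.74 to 2.35) were high. Genes saturated on some arrays enter these levels, and the scanner limit on this array is the lowest of the 10, with a median level of 5.32 for saturated probes. Without genes saturated on any of the 10 arrays the levels were -1.99, 2.98, 1.48, 2.60 and 1.36 for the low lists in that order and 3.34 and 3.14 for the high ones. Preadipocyte and fibroblast genes (other HFC arrays 3.21 to 3.75) and Egr, Nr4a and Klf genes (3.43 to 4.47) then no longer stand far apart. Nor do AP-1 genes (3.15 to 4.07) and lipogenesis genes (0.66 to 1.65), relative to the range. In each of these lists this array is still the lowest or highest. Single genes low on it were Il6 (-3.53), Fos (2.13), Bhlhe41 (-5.83) and Oasl1 (-1.85). Single genes high on it were Agpat2 (2.70), Bscl2 (2.13), Acads (1.16), Cebpa (3.32, others -0.75 to -0.56), Akt2 (2.97), Cat (3.48) and Sdhb (4.16).

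On other HFC arrays, keratin and epithelial genes were high at week 6 (2.81), as was C1qa (4.65), Hsd11b1 was low at week 3 (2.41) and Kdm5d at week 12 (-3.08).

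On HF75 arrays, heat shock genes (4.03), Fbn1 (-0.30) and Col6a1 (0.0010) were low at week 3. Cxcl13 was low at week 6 (-3.26). At week 9, IGF ligands and binding proteins were low (3.41) with a saturated gene included, and respiratory chain genes (4.40) and Agpat2 (-1.04) were high. At week 12, C1qa was low (0.67) and Slc27a4 high (-2.23). At week 15, Cxcl1 was high (4.53), and Cd74 (5.70), Blnk (0.98) and Pdia6 (0.084) were low. Cd74 was saturated on the other 4 HF75 arrays, so its levels there are lower limits. Without genes ever saturated, the level of IGF genes at week 9 was 2.91, and it was 2.72, 2.82, 3.30 and 2.95 at weeks 3, 6, 12 and 15. Week 9 was therefore not low in the IGF genes never saturated. Respiratory chain genes then had 3.11 at week 9 (other HF75 arrays 2.82 to 2.97). Heat shock genes had 2.76 at week 3 (others 3.28 to 3.63). Relative to the range, respiratory chain and heat shock genes no longer stand far apart either.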

How the results depend on the processing

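For the 205 higher and 41 lower genes against HFC, quantile normalization, median centring, dim signals raised to the detection level, every probe tested by itself, an intensity trend with robust fitting and a 2-fold minimum gave counts within 1.5 times of these. Genes well above background on all 10 arrays gave 88 higher, with fewer genes tested. Normexp background correction gave 9 lower and no filter 22 lower, and the cause was not tested. They moved the median of all genes to -0.17 and 0.16. Under normexp 188 of the 205 higher genes stayed positive, 99 passed and their median was 1.63 beside 3.96.

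Without each week in turn, with fewer arrays, higher genes numbered 44 to 185 and lower genes 0 to 28, the 0 by limma without week 3, 6, 12 or 15, with 2139, 2484, 2123 and 2621 genes at an unadjusted p under 0.05. Without the week block, so not paired, limma gave 0 higher and 0 lower, with 2583 at an unadjusted p under 0.05, as did all 5 diets in one fit (1681) and the scan day as a block (1234). The methods' t-test gave 1599 higher and 1067 lower before adjustment and 0 and 0 after Benjamini-Hochberg adjustment. For these blocks and tests the cause was not tested.

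Leaving out probes that hold GAGGAG or GAGAGA, chosen after seeing the data, gave 9 higher and 0 lower in limma (2505 at an unadjusted p under 0.05). Of the 205 higher genes, 97 kept a value and 76 of these were positive. Among the genes named in the report, Map1a (-0.29), 1700030K09Rik (-0.20) and Mx1 (-0.72) reversed there, because each was then read by another probe of the gene.

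Against HF20, 86 genes passed in all. The count was 145 with quantile normalization, 330 with median centring, 172 with normexp, 156 with dim signals raised, 278 with an intensity trend and 4671 with the methods' t-test before adjustment. It was 0 after adjustment of that test, and 0 by limma without a filter (5346 at an unadjusted p under 0.05), without the week block (4969), with all 5 diets in one fit (4432), with the scan day as a block (2272) and without the probes that hold GAGGAG or GAGAGA (5032). Without each week it ran from 0 to 470, at 470 without week 3 (263 higher and 207 lower), 119 without week 12 (116 and 3) and 0 without week 6, 9 or 15. The cause was not tested. Against HF5 the count was 0 by limma under every alternative run, and 1139 by the methods' t-test before adjustment.

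Single values of the named genes were also recomputed. For those past the threshold, 334 kept direction and threshold, 267 kept direction only and 3 reversed. For other named genes, 2071 values moved by less than the standard deviation of the gene's 5 paired differences, whatever their sign. Another 5 came to pass and 9 moved further. Of list medians, 385 held and 7 moved by more than the spread between weeks. The methods' t-test and the scan day as a block did not enter these counts. With that test after Benjamini-Hochberg adjustment, and with that block in limma, 0 of the 205 higher and 41 lower genes passed.

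Signal over background, from 3.50 to 4.05 on HF75 and from 4.12 to 7.22 on HFC arrays, limits what dim genes can show. Slide was not run as a block because no HF75 array shared a slide with an array of another diet.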

Other observations

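Gene lists outside the report's account are given here as medians of HF75 minus HFC, and Angptl2, in the hypoxia list, is the only member past the threshold. Mast cell genes had a median of -1.27 over 9 genes, 8 of them negative, and by week -0.47, -2.66, -1.43, 0.53 and -1.73. Cpa3, a mast cell protease, differed by -1.93, lower in 4 of 5 pairs, with an adjusted p of 0.298. Erythroid genes had -1.29 over 5 genes, or -2.08 without week 9. Neutrophil genes had 0.87 over 13 genes, or 0.10 without week 9, with weekly medians of -0.78, -1.11, 3.88, 1.43 and 0.48. T cell genes had 0.03 over 14 genes, or -1.33 without week 9, and ran from -4.32 at week 15 to 5.45 at week 9. Keratin and epithelial genes had 1.06 over 12 genes, 0.61 without week 9 and -0.20 under normexp.

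Endothelial genes had -0.16 over 14 genes (0.25 without week 9), cholesterol genes -0.25 over 19, 17 of them negative (-0.14), heat shock genes -0.02 over 15 (-0.05), respiratory chain genes -0.06 over 28 (0.04), cell cycle genes -0.04 over 22 (-0.64) and hypoxia genes 0.01 over 19 (0.18). Hspb8, a small heat shock protein, was lower in 5 of 5 pairs, at -1.34 (adjusted p 0.113), Hsd11b1 in 5 of 5, at -0.98 (0.15) and Akt2 without overlap, at -1.19 (0.133).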
